A study of Mus musculus with 32 samples.

Results

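Sarcoplasmic reticulum calcium handling was described through 10 genes taken by name: Sln, Pln, Atp2a1, Atp2a2, Ryr1, Casq1, Casq2, Cacna1s, Pvalb and Jsrp1. Each matched exactly 1 Ensembl identifier among the 43035 genes of the tables, and all 10 passed the low-count filter in whole muscle and in sorted cells. The rule uses their names and none of their measured values. The genes were, however, chosen with earlier results of these data known, so the counts of calls among them are descriptive. The libraries came from mice with an inducible DUX4 gene, which encodes a transcription factor misexpressed in the muscle of people with facioscapulohumeral dystrophy, and from wild-type (WT) mice. Chow with doxycycline was given to every mouse, WT included, so the drug is shared by all 8 groups.

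Whole muscle was taken at 2 weeks from DUX4 mice (5 libraries) and WT mice (5 libraries), and at 16 weeks from DUX4 mice (4 libraries) and WT mice (4 libraries). Hind limb muscle was also sorted for CD31+ endothelial cells, the lining of the vessels, from DUX4 mice (4 libraries) and WT mice (3 libraries). Connective tissue progenitors of muscle, known as fibro-adipogenic progenitors (FAPs), were sorted by PDGFRa from DUX4 mice (4 libraries) and WT mice (3 libraries). The sources used here give neither the promoter that switches on the DUX4 gene nor the muscles of the whole-muscle samples, the age and sex of the mice or the time of the cell sort. RNA from the DUX4 transgene was not analysed here. Replicates are numbered in order of deposit, and the labels do not say whether each is a separate animal, so the p-values below measure only the spread between libraries.

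A muscle fibre contracts when the voltage sensor of the cell membrane opens the release channel of the sarcoplasmic reticulum, the calcium store, and relaxes when calcium pumps return the ion to that store. Fast fibres use a different pump from slow fibres and the heart, and the forms of the calcium-binding store protein differ in part between these tissues. Small membrane peptides such as sarcolipin and phospholamban slow the pumps. In mice sarcolipin RNA is known to be plentiful in the atria and in developing muscle and scarce in adult fast muscle.

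Totals ran from 6071276 to 20666816 counts per library, so that 3 counts, taken as the limit for a gene with no count, correspond to 0.494 to 0.145 CPM (counts scaled to a common library total). Levels are CPM after TMM scaling (trimmed mean of M-values). A list of 10 genes that all fibres express (pan-fibre genes, such as Acta1 and Ckm) summed to 36360.5 to 62859 CPM in DUX4 muscle at 2 weeks, against 63655 to 74639 CPM in WT muscle, and to 44624 to 54612 CPM in DUX4 muscle at 16 weeks, against 65337 to 83862 CPM in WT muscle. In bulk tissue, fewer fibres and less fibre RNA per fibre cannot be told apart. The sorted libraries carried the defining genes of their labels: 8 endothelial genes summed to 3425 to 4055 CPM in DUX4 CD31+ cells and 4808 to 5611 CPM in WT CD31+ cells, and 8 FAP genes to 54805 to 58344 CPM in DUX4 FAPs and 41997 to 50651 CPM in WT FAPs. FAP genes also reached 10733 to 12612 CPM in DUX4 CD31+ cells, against 3949 to 6198 CPM in WT CD31+ cells. At 2 weeks, replicates 1 to 3 of both genotypes had 51.2 to 73.5 CPM of Hoxd8, a gene that marks position along the body, and replicates 4 and 5 had 4.49 to 5.56 CPM, so the 2-week results are also given within these sets.

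The RNAs of some pump regulators encode very short proteins. The mouse coding sequences of Sln (96 bases, chr9:53853473-53853568, plus strand), Pln (159 bases, chr10:53343864-53344022, plus strand) and Mrln, the myoregulin gene (141 bases, chr10:70219496-70219636, plus strand), are printed because these 3 peptides bind the same pumps and their RNAs moved differently in DUX4 muscle. They were read from the GENCODE vM21 transcripts of GRCm38, each lies in a single exon, and capitals mark the start and stop codons.
Sln: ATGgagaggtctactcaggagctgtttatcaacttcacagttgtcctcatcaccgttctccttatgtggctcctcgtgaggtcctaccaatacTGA
Pln: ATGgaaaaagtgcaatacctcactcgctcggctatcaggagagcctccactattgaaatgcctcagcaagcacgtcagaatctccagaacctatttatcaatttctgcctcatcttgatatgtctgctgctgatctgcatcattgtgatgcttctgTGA
Mrln: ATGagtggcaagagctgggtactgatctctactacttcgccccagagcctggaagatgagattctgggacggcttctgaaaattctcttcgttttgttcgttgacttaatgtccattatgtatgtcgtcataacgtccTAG
They hold 31, 52 and 46 codons before the stop codon.

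Sln RNA was higher in DUX4 libraries than in WT libraries in all 4 comparisons, and no other of the 10 genes was called in all of them. Sln encodes sarcolipin, which binds the calcium pumps and lowers the calcium they store for the ATP they use. At 2 weeks Sln had 361, 407, 198, 42.4 and 305 CPM in the 5 DUX4 muscles, against 39.4, 1.95, 2.75, 1.28 and 1.41 CPM in the 5 WT muscles. The groups did not overlap, but DUX4 replicate 4 was the lowest of its group and WT replicate 1 stood far above the other 4 WT libraries, so that these 2 libraries nearly met. The change was a 27.9-fold rise (log2 4.80 ± 0.99 (SE), adjusted p = 0.00335), and 7.16 on the log2 scale without WT replicate 1. Within the libraries with high Hoxd8 it was 4.41 (adjusted p = 0.0648), and within those with low Hoxd8 6.99 (adjusted p = 0.195).

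At 16 weeks Sln had 837, 650.04, 811 and 688 CPM in DUX4 muscles, against 72.04, 21.5, 21.7 and 6.06 CPM in WT muscles. Every DUX4 library was far above every WT library, and WT replicate 1 was again the highest WT value. The rise was 24.4-fold (log2 4.61 ± 1.09 (SE), adjusted p = 0.00567), and 5.47 on the log2 scale without WT replicate 1. In mean level the order was DUX4 at 16 weeks, DUX4 at 2 weeks, WT at 16 weeks and WT at 2 weeks, with 747 ± 91.4, 263 ± 146, 30.3 ± 28.8 and 9.36 ± 16.8 CPM (SD, n = 4, 5, 4 and 5). The DUX4 groups did not overlap each other, the WT groups did, and DUX4 at 2 weeks overlapped WT at 16 weeks through its replicate 4. The change at 16 weeks minus that at 2 weeks was -0.19 ± 1.27 (SE, adjusted p = 0.954), which is no detectable difference between the times.

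**Figure D1:**
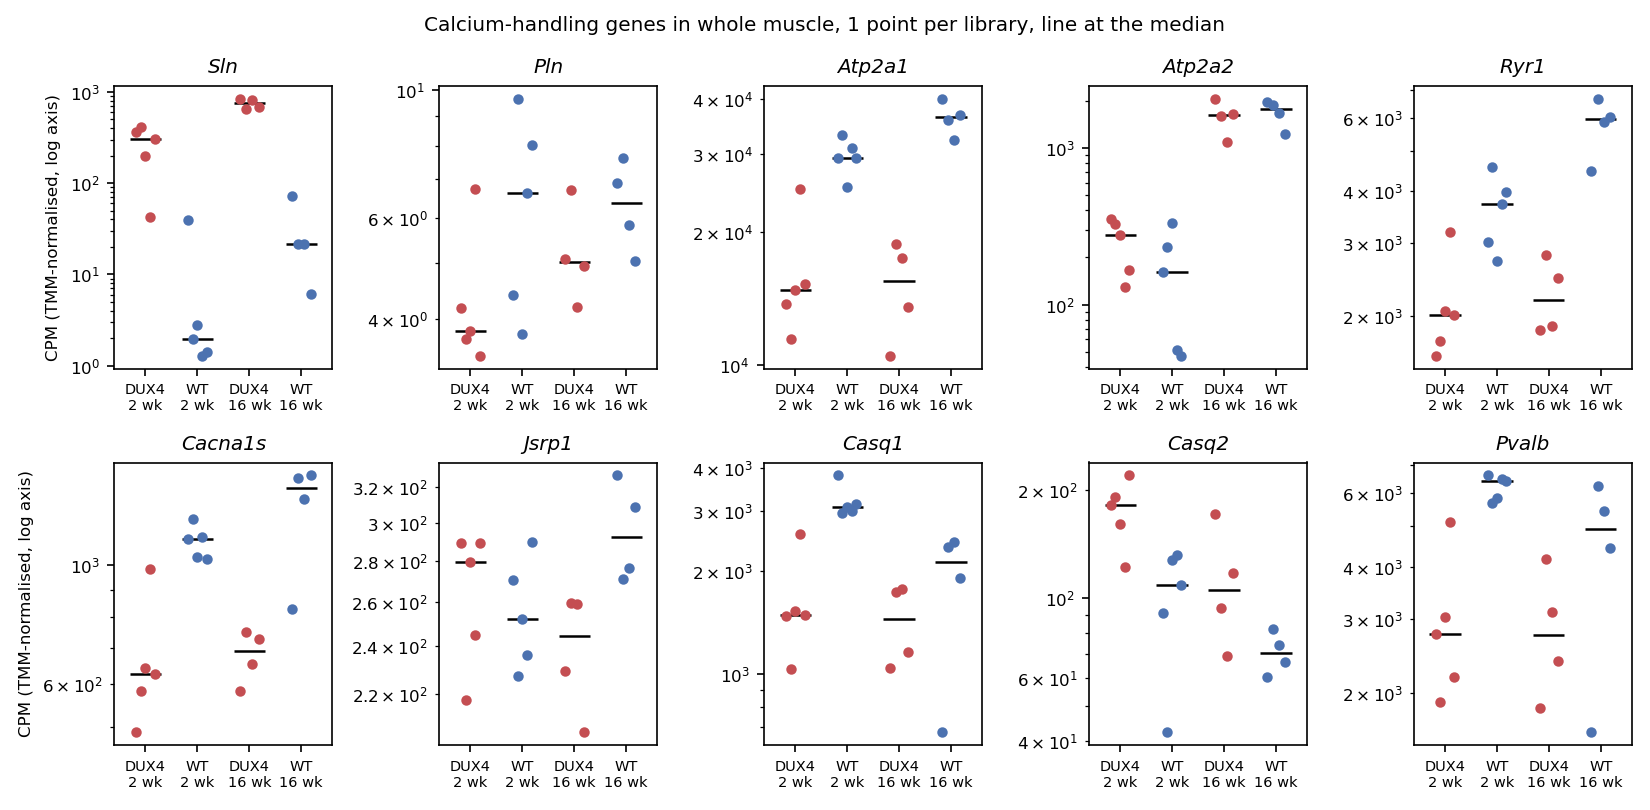
Each panel plots 1 of the 10 calcium-handling genes in whole muscle as TMM-normalised CPM on a log axis, with 1 point per library and a line at the group's median, for DUX4 and WT at 2 weeks and at 16 weeks. Sln points of DUX4 muscle lie above all WT points of the same time, and Atp2a1 and Cacna1s points of DUX4 muscle lie below them.

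Pln, which encodes phospholamban, the inhibitor of the slow and cardiac pump, had few counts in every group. At 2 weeks Pln had 4.19, 3.69, 3.81, 6.73 and 3.46 CPM in DUX4 muscles and 4.41, 9.65, 3.77, 6.63 and 8.01 CPM in WT muscles. The ranges overlapped, with 4 of the 5 DUX4 libraries close together and replicate 4 apart from them at the top. The difference was log2 -0.57 ± 0.25 (SE), adjusted p = 0.134, and it was called only without DUX4 replicate 4 (log2 -0.77, adjusted p = 0.0326). At 16 weeks Pln had 5.09, 6.71, 4.19 and 4.95 CPM in DUX4 muscles and 6.90, 7.61, 5.83 and 5.05 CPM in WT muscles, again with overlap (log2 -0.30 ± 0.28 (SE), adjusted p = 0.468). Of the exonic bases of Pln, 141 of 2759 also lie in exons of Cep85l on the other strand, and whether the counting used strand is not given in the sources used here.

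Of the other pump regulators on the list, S100a1 was higher and Mrln lower at both times. Of 5 tested (Mrln, Strit1, Arln, Hrc and S100a1), 1 was higher and 1 lower at 2 weeks, and the same counts held at 16 weeks. Among all genes tested 11.2% were higher and 6.47% lower at 2 weeks, and 14.1% and 12.5% at 16 weeks. With 5 genes, 1 call in each direction does not set the list apart from all genes. S100a1, a calcium-binding protein known to stimulate the pump and the release channel, averaged 144 ± 43.9 CPM in DUX4 muscle and 64.0 ± 7.59 CPM in WT muscle at 2 weeks (log2 1.17 ± 0.18, adjusted p = 0.000258). At 16 weeks it averaged 122 ± 12.3 CPM in DUX4 muscle and 46.9 ± 8.40 CPM in WT muscle (log2 1.38 ± 0.20, adjusted p = 0.000168). Mrln, which encodes the pump inhibitor myoregulin, averaged 11.6 ± 1.51 CPM in DUX4 muscle and 22.5 ± 6.98 CPM in WT muscle at 2 weeks (log2 -0.95 ± 0.20, adjusted p = 0.00344). At 16 weeks it averaged 11.5 ± 1.91 CPM in DUX4 muscle and 26.5 ± 6.54 CPM in WT muscle (log2 -1.22 ± 0.22, adjusted p = 0.000984). Sarcolipin and myoregulin RNAs thus moved in opposite directions at both times. Without DUX4 replicate 4 at 2 weeks the counts were 2 higher and 2 lower, and without WT replicate 1 at 16 weeks 2 were lower.

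The fast-fibre pump fell at both times. Atp2a1, the calcium ATPase of fast fibres, had 13715, 11431, 14809, 24979.7 and 15279 CPM in DUX4 muscles at 2 weeks, against 29348, 33100.3, 25333, 31053 and 29437 CPM in WT muscles. The groups did not overlap, although DUX4 replicate 4 was close to the lowest WT library (log2 -0.89 ± 0.20 (SE), adjusted p = 0.00636). At 16 weeks Atp2a1 had 10494, 18735, 17454 and 13524 CPM in DUX4 muscles and 40036, 35944, 32233 and 36816 CPM in WT muscles. Here the highest DUX4 library was well below the lowest WT library (log2 -1.27 ± 0.23 (SE), adjusted p = 0.000880). Exons of Rabep2 on the other strand cover 763 of the 3477 exonic bases of Atp2a1.

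Atp2a2, the pump of slow fibres and the heart and, in another splice form, of most other cells, was not called at either time. At 2 weeks Atp2a2 had 351, 329, 277, 130.1 and 167 CPM in DUX4 muscles and 161, 232, 333, 51.1 and 47.1 CPM in WT muscles. The ranges overlapped, and the 2 lowest DUX4 and the 2 lowest WT libraries were replicates 4 and 5, those with low Hoxd8 (log2 0.61 ± 0.44 (SE), adjusted p = 0.382). Within the high-Hoxd8 libraries the values were 277 to 351 CPM in DUX4 muscle and 161 to 333 CPM in WT muscle, and within the low-Hoxd8 libraries 130.1 to 167 CPM in DUX4 muscle and 47.1 to 51.1 CPM in WT muscle. With a term for the 2 sets the change was 0.87 on the log2 scale and was called (adjusted p = 0.0217). At 16 weeks Atp2a2 had 2063, 1610.1, 1089 and 1643 CPM in DUX4 muscles and 1966, 1882, 1665 and 1221 CPM in WT muscles, with full overlap (log2 -0.07 ± 0.49 (SE), adjusted p = 0.935). All 8 libraries of 16 weeks were above all 10 of 2 weeks for this gene, in both genotypes, and a list of 8 slow-fibre genes behaved alike, with 3576 to 7025 CPM in DUX4 and 4062 to 6434 CPM in WT muscle at 16 weeks, against 335 to 1334 CPM in DUX4 and 203 to 1243 CPM in WT muscle at 2 weeks. Whether the same muscles were taken at both times is not given in the sources used here.

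The release channel and its voltage sensor were both lower in DUX4 muscle. Ryr1, the calcium release channel of skeletal muscle, had 1608, 1742, 2059, 3194 and 2013 CPM in DUX4 muscles at 2 weeks, against 3015, 4583, 2713, 3731 and 3976 CPM in WT muscles. DUX4 replicate 4 lay above 2 of the WT libraries, and the other 4 DUX4 libraries lay below all 5 of them (log2 -0.76 ± 0.20 (SE), adjusted p = 0.0148). At 16 weeks Ryr1 had 1851, 2808, 1899 and 2469 CPM in DUX4 muscles and 4481, 6673, 5878 and 6050.3 CPM in WT muscles, with no overlap (log2 -1.35 ± 0.23 (SE), adjusted p = 0.000509).

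Cacna1s, the pore subunit of the voltage sensor that faces the release channel, had 488, 582, 644, 982 and 627 CPM in DUX4 muscles at 2 weeks and 1119, 1221, 1038, 1128 and 1025 CPM in WT muscles. All DUX4 values were lower than all WT values (log2 -0.73 ± 0.18 (SE), adjusted p = 0.00902). At 16 weeks Cacna1s had 583, 749, 655 and 729 CPM in DUX4 muscles and 828, 1455, 1329 and 1471 CPM in WT muscles. The groups were again apart, with WT replicate 1 nearest to the DUX4 range (log2 -0.90 ± 0.20 (SE), adjusted p = 0.00351). Jsrp1, a membrane protein of the junctional reticulum that binds the voltage sensor and calsequestrin, had 289, 218, 279, 245 and 289 CPM in DUX4 muscles at 2 weeks and 270.2, 227, 252, 236 and 289.9 CPM in WT muscles. The groups lay on top of each other (log2 0.05 ± 0.11 (SE), adjusted p = 0.804). At 16 weeks Jsrp1 had 229, 259, 259 and 205 CPM in DUX4 muscles and 327, 271, 276 and 309 CPM in WT muscles, which did not overlap but did not pass the test (log2 -0.31 ± 0.12 (SE), adjusted p = 0.0649). With DESeq2 this difference was called (log2 -0.33, adjusted p = 0.0249).

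The calcium-binding proteins moved in both directions at 2 weeks. Casq1, a calsequestrin of skeletal fibres, had 1479.7, 1036, 1524, 2576 and 1490.2 CPM in DUX4 muscles at 2 weeks. WT muscles had 3812, 2968, 3080.4, 2999 and 3150.01 CPM. No DUX4 library reached the WT range, and replicate 4 came nearest (log2 -0.98 ± 0.29 (SE), adjusted p = 0.0284). Casq2, calsequestrin of slow fibres and the heart, had 182, 192, 161, 123 and 220.2 CPM in DUX4 muscles at 2 weeks and 91.2, 42.3, 128, 132 and 109 CPM in WT muscles. It was higher in DUX4 muscle, with DUX4 replicate 4 inside the WT range, and the call was at the edge of the threshold (log2 0.80 ± 0.27 (SE), adjusted p = 0.0499). It was lost in 13 of 20 alternative settings, among them other size factors, only the 2 groups compared, and leaving out any of DUX4 replicates 1, 2, 3 and 5 or WT replicates 1, 2 and 5 (adjusted p = 0.0698 to 0.145 in these leave-outs). Pvalb, the soluble calcium buffer of fast fibres, had 2773, 1910.1, 3048, 5108 and 2183 CPM in DUX4 muscles at 2 weeks and 6612, 5693, 5829.8, 6479 and 6394 CPM in WT muscles. All DUX4 values were lower, with replicate 4 again the nearest (log2 -1.05 ± 0.32 (SE), adjusted p = 0.0327).

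At 16 weeks none of these 3 genes was called. Casq1 had 1041, 1733, 1767 and 1163 CPM in DUX4 muscles and 676, 2345, 2439 and 1903 CPM in WT muscles. WT replicate 1 was the lowest of all 8 libraries, and the other 3 WT libraries were above all 4 DUX4 libraries (log2 -0.37 ± 0.32 (SE), adjusted p = 0.430). Casq2 had 172, 93.6, 69.2 and 118 CPM in DUX4 muscles and 60.3, 82.2, 74.2 and 66.3 CPM in WT muscles, with only DUX4 replicate 3 inside the WT range (log2 0.68 ± 0.30 (SE), adjusted p = 0.110). Pvalb had 1848, 4177, 3118 and 2385 CPM in DUX4 muscles and 1617, 6252, 5433 and 4438 CPM in WT muscles. The low value of WT replicate 1 fell below the whole DUX4 range (log2 -0.62 ± 0.36 (SE), adjusted p = 0.212), and without that library Pvalb was called lower (log2 -0.90, adjusted p = 0.0318). With limma voom and quality weights both Casq1 (log2 -0.65, adjusted p = 0.0172) and Pvalb (log2 -0.86, adjusted p = 0.0107) were called lower.

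In all, 7 of the 10 genes were called at 2 weeks, where 17.6% of the 15396 genes tested were, with 2 higher (11.2% of genes) and 5 lower (6.47% of genes). The groups of 5 of the 10 did not overlap, as in 13.6% of all genes tested. The median log2 change of the 10 was -0.65, against -0.01 over all genes tested. When any 1 of DUX4 replicates 1, 2, 3 and 5 or WT replicate 1 was left out, the count was 4, since Casq1, Casq2 and Pvalb then lost their calls. With only the 4 libraries of low Hoxd8 none was called and 16 genes were called in all, while the signs of the 7 did not turn. At 16 weeks 4 of the 10 were called, where 26.6% of genes were, with 1 higher (14.1% of genes) and 3 lower (12.5% of genes), and the groups of 5 did not overlap, as in 27.1% of genes. The median log2 change was then -0.34, against 0.01 over all genes tested. By direction, 5 of 10 called lower at 2 weeks stood against 6.47% of genes, and 3 of 10 at 16 weeks against 12.5%.

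None of the 10 changes differed between the times by the test of the difference itself (16 weeks minus 2 weeks, 0.299% of genes called). The count was 0 by edgeR, by DESeq2 and by limma voom, and 1 gene, Jsrp1, had an unadjusted p under 0.05 (-0.36 ± 0.16, SE, adjusted p = 0.261). For Ryr1 the difference was -0.59 ± 0.30 (adjusted p = 0.318), and for Casq1 it was 0.61 ± 0.44 (adjusted p = 0.475). The calls of Casq1, Casq2 and Pvalb at 2 weeks and not at 16 weeks are therefore not shown to be a difference between the times.

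**Figure D2:**
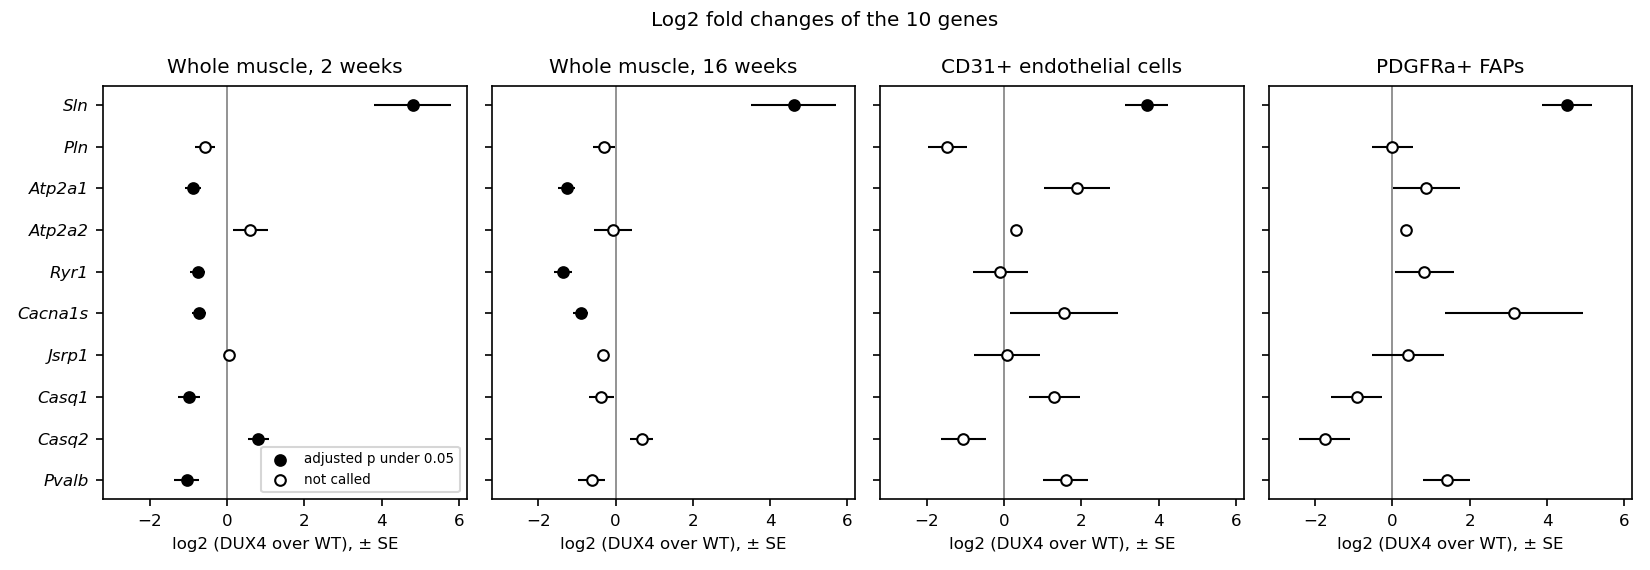
The log2 fold change (DUX4 over WT) of each of the 10 genes is plotted with its SE in whole muscle at 2 and 16 weeks, CD31+ endothelial cells and PDGFRa+ FAPs, with filled points for an adjusted p under 0.05. Sln is filled in all 4 panels, at log2 4.80, 4.61, 3.69 and 4.52, while the other filled points lie in whole muscle.

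Per kilobase of the longest annotated transcript, the 10 genes differed in level by orders of magnitude. In WT muscle at 2 weeks the mean level in CPM per kilobase was 8529 for Atp2a1, 6348 for Pvalb and 1734 for Casq1. It was 235 for Ryr1, 193 for Jsrp1 and 177 for Cacna1s. Casq2 and Atp2a2 were lower, at 39.3 and 29.1, and Sln and Pln were the lowest at 7.10 and 2.78. In DUX4 muscle at 16 weeks Sln stood at 566 CPM per kilobase, above Atp2a2 (282), Jsrp1 (179.8), Ryr1 (147) and Cacna1s (109) and below Casq1 (772), whereas in WT muscle at 16 weeks it stood at 23.01, below all of these.

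Plain ratios of 2 genes within a library do not depend on scaling between libraries. The log2 averages and tests below add 1 CPM to each gene first, so they depend on it slightly for genes of few CPM. For 6 pairs at 2 times (12 tests, adjusted together), 7 passed at an adjusted p under 0.05. The smallest p the design allows is 0.00794 with 5 against 5 libraries and 0.0286 with 4 against 4. The ratio of Sln to Atp2a1 was 0.0263, 0.0356, 0.0134, 0.00170 and 0.0200 in DUX4 muscles at 2 weeks, against 0.00134, 0.0000590, 0.000109, 0.0000414 and 0.0000480 in WT muscles. On the log2 scale the ratio averaged -6.22 ± 1.73 in DUX4 muscle and -12.60 ± 1.77 in WT muscle (SD), a difference of 6.38 (exact permutation test, adjusted p = 0.0476). The WT value of replicate 1 was the closest to the DUX4 range without entering it. At 16 weeks the ratio was 0.0798, 0.0347, 0.0465 and 0.0509 in DUX4 muscles and 0.00180, 0.000599, 0.000673 and 0.000164 in WT muscles, again without overlap, with a log2 difference of 6.34 (exact permutation test, adjusted p = 0.0490).

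The ratio of Casq1 to Casq2 was lower in DUX4 muscle at 2 weeks, and that of Atp2a1 to Atp2a2 at 16 weeks. Casq1 over Casq2 was 8.14, 5.41, 9.46, 21.02 and 6.77 in DUX4 muscles at 2 weeks, against 41.8, 70.2, 24.1, 22.7 and 28.9 in WT muscles. On the log2 scale the ratio averaged 3.16 ± 0.75 in DUX4 muscle and 5.08 ± 0.67 in WT muscle (SD), a difference of -1.91 (exact permutation test, adjusted p = 0.0476). The groups did not overlap, and DUX4 replicate 4 was just under the lowest WT library. At 16 weeks the difference was -0.85 and did not pass (exact permutation test, adjusted p = 0.187). Atp2a1 over Atp2a2 was 5.09, 11.6, 16.03 and 8.23 in DUX4 muscles at 16 weeks, against 20.4, 19.1, 19.4 and 30.1 in WT muscles. On the log2 scale the ratio averaged 3.23 ± 0.71 in DUX4 muscle and 4.45 ± 0.31 in WT muscle (SD), a difference of -1.22 (exact permutation test, adjusted p = 0.0490). All 4 DUX4 ratios were below all 4 WT ratios. At 2 weeks this ratio overlapped, with a log2 difference of -1.83 (exact permutation test, adjusted p = 0.0833), and it passed when libraries were permuted only within the Hoxd8 sets (adjusted p = 0.0429).

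Jsrp1 over Ryr1 was higher in DUX4 muscle at both times. At 2 weeks it was 0.180, 0.125, 0.136, 0.0766 and 0.144 in DUX4 muscles and 0.0896, 0.0496, 0.0929, 0.0633 and 0.0729 in WT muscles, with DUX4 replicate 4 inside the WT range. The log2 difference was 0.83 at 2 weeks and 1.05 at 16 weeks (exact permutation tests, adjusted p = 0.0490 at each time). Pvalb over Atp2a1 did not pass at 2 weeks (log2 difference -0.20, exact permutation test, adjusted p = 0.187). At 16 weeks it was 0.176, 0.223, 0.179 and 0.176 in DUX4 muscles and 0.0404, 0.174, 0.169 and 0.121 in WT muscles, a log2 difference of 0.78 (exact permutation test, adjusted p = 0.0490) in which WT replicate 1 lay far below the others. Without that library the difference was 0.30 (exact permutation test, adjusted p = 0.0571). Pln over Atp2a2 passed at neither time, with log2 differences of -1.34 at 2 weeks and -0.15 at 16 weeks (exact permutation tests, adjusted p = 0.187 and 0.486). Leaving out 1 library raises the smallest p the design allows. The count of 7 was 0 without DUX4 replicate 1, 2, 3 or 5 or WT replicate 2, 4 or 5 of 2 weeks, and 2 when any 1 library of 16 weeks was left out.

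**Figure D3:**
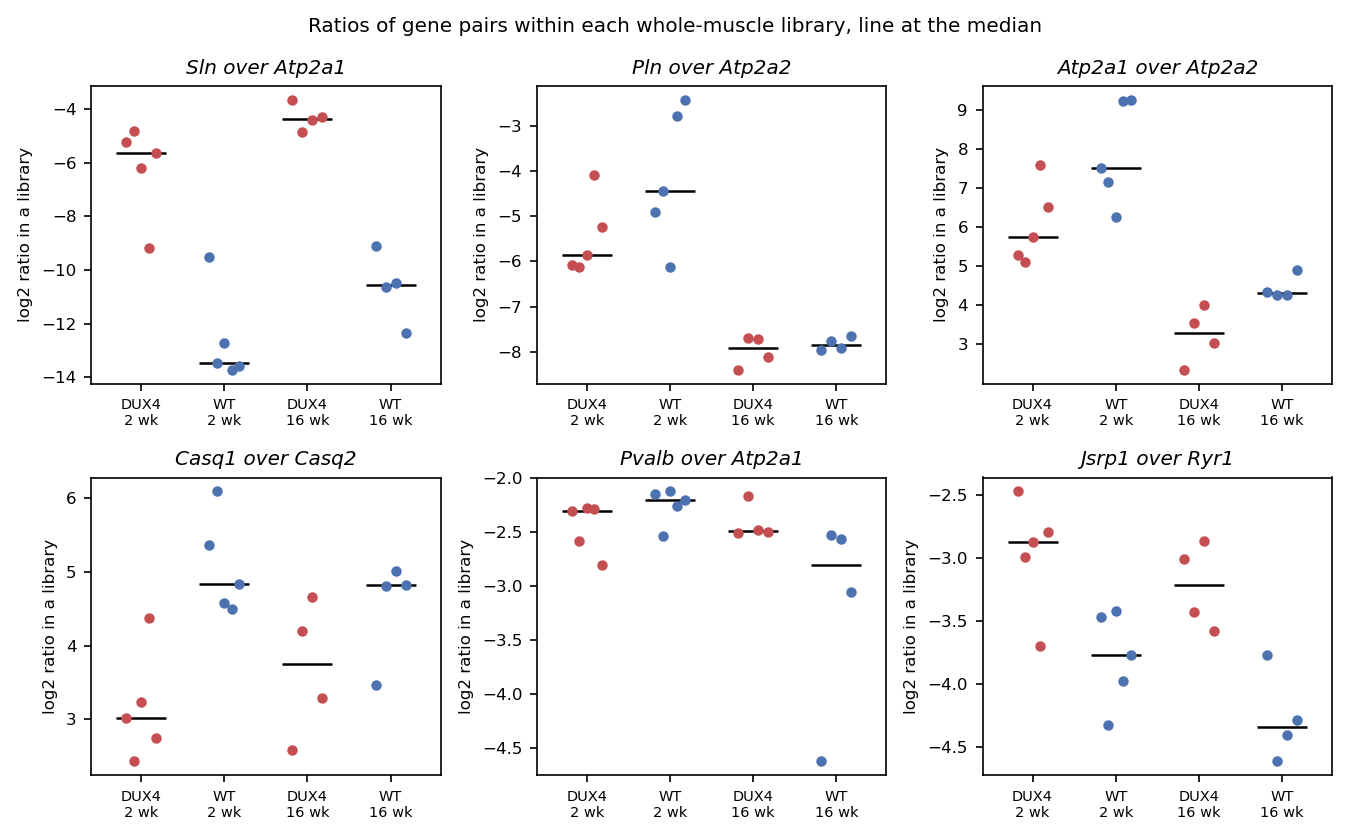
Each panel plots the log2 ratio of a pair of calcium-handling genes in every whole-muscle library (1 CPM added to each gene), with a line at the group's median, for DUX4 and WT at 2 and at 16 weeks. The log2 ratio of Sln to Atp2a1 averages -6.22 in DUX4 and -12.60 in WT muscle at 2 weeks, and no point of the groups overlaps.

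Set against the summed pan-fibre genes of the same library, the falls of the 10 genes were smaller. None of 20 tests passed after adjustment (lowest adjusted p = 0.0571, exact permutation tests), and 10 had an unadjusted p under 0.05. The smallest p these permutation tests allow is 0.00794 at 2 weeks and 0.0286 at 16 weeks. After adjustment over 20 tests a single gene at that p could not pass, even with groups fully apart. The absence of calls is therefore no evidence that the genes followed the pan-fibre sum. At 2 weeks the log2 difference relative to the pan-fibre sum was 6.04 for Sln, 1.49 for Atp2a2, 1.47 for Casq2 and 0.64 for Jsrp1. It was -0.34 for Atp2a1, -0.44 for Casq1, -0.54 for Pvalb, -0.19 for Ryr1 and -0.18 for Cacna1s. At 16 weeks it was 5.75 for Sln, 1.31 for Casq2, -0.59 for Atp2a1 and -0.65 for Ryr1, in each of which the groups did not overlap, while Cacna1s was at -0.16 and Pvalb at 0.19. Per 1000 CPM of pan-fibre RNA, Sln had 11.9 to 18.8 CPM in DUX4 muscles at 16 weeks, against 0.0737 to 1.10 CPM in WT muscles. Without DUX4 replicate 4 of 2 weeks, 5 of the 20 passed.

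Casq1 and Pvalb varied together over the whole-muscle libraries. After the mean of each of the 4 whole-muscle groups was removed, Casq1 and Pvalb correlated at r = 0.96 over the 18 libraries, Ryr1 and Cacna1s at 0.83, Cacna1s and Pvalb at 0.80, and Casq1 and Cacna1s at 0.79. Atp2a1, the fast-fibre pump, was less close to them, at 0.42 with Casq1, 0.48 with Pvalb and 0.65 with Ryr1, and Ryr1 and Casq1 stood at 0.55. Sln ran against Ryr1 at -0.65, and Atp2a1 against Casq2 at -0.64. These values describe libraries that share groups, scaling and fibre content, and carry no test. WT replicate 1 of 16 weeks was the lowest of its group for Casq1 (676 CPM, group median 2124), Pvalb (1617, median 4935) and Cacna1s (828, median 1392). It was the highest of its group for Atp2a1 (40036 CPM). Correlations without this library were not computed. Among 9451 genes that averaged 5 CPM or more, those most like Pvalb were Prr33 (0.96), Casq1 (0.96), Tmem233 (0.96), Pgm1 (0.94) and Plcd4 (0.94). Those most like Sln were Mfsd7a (0.92), Serf1 (0.92), Slc37a2 (0.90), Tmem158 (0.89) and Eef1akmt1 (0.89). Among those most like Pln were Edc3 (0.93), Zfp966 (0.92), Aff1 (0.87) and Ubr3 (0.86).

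The promoters of the closest pair, Casq1 and Pvalb, and of Casq2, the calsequestrin that moved the other way at 2 weeks, are printed from 250 bases before to 50 bases after the gene's start. They come from RefSeq (GRCm38.p6), where 7 of the 10 genes matched an entry (Sln, Atp2a2 and Jsrp1 did not). Capitals mark each E-box (CANNTG, which reads the same on both strands), the motif bound by myogenic factors such as MyoD.
Casq1 (chr1:172219846-172220145, minus strand): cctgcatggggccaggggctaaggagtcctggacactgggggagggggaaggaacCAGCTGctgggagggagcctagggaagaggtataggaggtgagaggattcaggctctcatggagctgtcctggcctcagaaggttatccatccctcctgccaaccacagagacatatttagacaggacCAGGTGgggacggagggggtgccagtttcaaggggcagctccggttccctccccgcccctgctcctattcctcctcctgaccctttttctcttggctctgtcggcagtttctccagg
Pvalb (chr15:78206351-78206650, minus strand): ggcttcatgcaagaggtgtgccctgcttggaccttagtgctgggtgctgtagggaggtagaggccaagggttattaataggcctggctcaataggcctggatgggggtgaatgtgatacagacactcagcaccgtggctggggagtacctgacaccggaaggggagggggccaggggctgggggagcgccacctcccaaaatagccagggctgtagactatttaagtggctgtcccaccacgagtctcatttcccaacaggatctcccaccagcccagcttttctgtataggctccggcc
Casq2 (chr3:102086165-102086464, plus strand): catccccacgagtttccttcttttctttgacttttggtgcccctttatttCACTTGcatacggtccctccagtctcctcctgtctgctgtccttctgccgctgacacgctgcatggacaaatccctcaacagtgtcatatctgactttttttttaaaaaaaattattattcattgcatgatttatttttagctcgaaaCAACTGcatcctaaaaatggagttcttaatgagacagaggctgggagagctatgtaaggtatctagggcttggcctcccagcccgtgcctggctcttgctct
Casq1 and Casq2 hold 2 E-boxes each and Pvalb none, so the closest pair is not alike in this motif. Cacna1s and Pln also hold 2, Atp2a1 holds 1 and Ryr1 none, and 72.3% of 32851 promoters of this length hold at least 1. One form of the core bound by MEF2 factors (CTA, any 4 bases, TAG, in 3.69% of promoters) was not found on either strand in these 7 windows. Other forms of that core, such as those that start with TTA, were not searched for, so the windows are not shown to lack it. The core bound by DUX4 (TAAT, any 2 bases, AATCA, in 0.350% of promoters) was not found on either strand either.

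The rest of the pathway was followed with lists of genes not among the 10. At 2 weeks 11.2% of all genes tested were called higher and 6.47% lower. The shares at 16 weeks were 14.1% and 12.5%, and the whole-muscle counts of the lists below stand beside these. Of 18 triad proteins, which join the voltage sensor to the store, 1 was higher and 6 lower at 2 weeks, with a median log2 change of -0.08 (all genes -0.01). Bin1, which shapes the tubule membrane, averaged 775 ± 103 CPM in DUX4 muscle and 485 ± 81.7 CPM in WT muscle (log2 0.68 ± 0.12, adjusted p = 0.00121). Jph2, a junctophilin that ties the tubule to the store, averaged 318 ± 123 CPM in DUX4 muscle and 733 ± 41.1 CPM in WT muscle (log2 -1.21 ± 0.27, adjusted p = 0.00496). Also lower were Cacng6, of the voltage sensor's gamma subunit family (log2 -0.72 ± 0.17, adjusted p = 0.00912), and Tmem38a, the counter-ion channel of the store (log2 -0.38 ± 0.10, adjusted p = 0.0113). At 16 weeks 1 was higher and 5 lower, with a median of -0.24 (all genes 0.01). Tmem38a averaged 876 ± 90.9 CPM in DUX4 muscle and 1220.1 ± 69.9 CPM in WT muscle (log2 -0.48 ± 0.11, adjusted p = 0.00390). Cacna2d1, an accessory subunit of the voltage sensor (log2 -0.85 ± 0.20, adjusted p = 0.00548), and Trdn, triadin, which links calsequestrin to the release channel (log2 -0.71 ± 0.20, adjusted p = 0.0142), were lower too. Bin1 was at the threshold (log2 0.39 ± 0.14, adjusted p = 0.0470) and lost its call whichever library of 16 weeks was left out. The number lower was 8 without WT replicate 1 and 3 without WT replicate 2 of that time.

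Among calcium signalling genes outside the store, Camk2d rose at both times. At 2 weeks 1 of 12 was higher (11.2% of all genes) and 2 were lower (6.47% of all genes), with a median of -0.15. At 16 weeks 2 were higher (14.1% of all genes) and 7 lower (12.5% of all genes), with a median of -0.40. The numbers higher were thus near the shares over all genes. Camk2d, a subunit of a calcium-dependent kinase, averaged 149 ± 25.4 CPM in DUX4 muscle and 50.7 ± 6.71 CPM in WT muscle at 2 weeks (log2 1.55 ± 0.14, adjusted p = 1.02e-06). At 16 weeks Camk2d averaged 133 ± 22.3 CPM in DUX4 muscle and 52.8 ± 6.58 CPM in WT muscle (log2 1.33 ± 0.16, adjusted p = 2.21e-05). Of the other subunits of that kinase, Camk2g (log2 -0.67 ± 0.18, adjusted p = 0.0174) and Camk2a (log2 -0.83 ± 0.28, adjusted p = 0.0473) were lower at 2 weeks, and Camk2b was not called (log2 0.04 ± 0.12, adjusted p = 0.867). Camk2g was also lower at 16 weeks (log2 -0.86 ± 0.20, adjusted p = 0.00528), with Calm3, a calmodulin gene (log2 -0.78 ± 0.17, adjusted p = 0.00263), and Nfatc1, a transcription factor activated by calcineurin (log2 -0.59 ± 0.14, adjusted p = 0.00537). Rcan2, a regulator of calcineurin, was higher at 16 weeks (log2 0.67 ± 0.14, adjusted p = 0.00278). The number lower at 2 weeks was 0 without DUX4 replicate 2, 1 without DUX4 replicate 1 or 3 or WT replicate 2, 4 or 5, and 4 without DUX4 replicate 4.

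Genes of the mitochondrial calcium uniporter, which takes calcium into mitochondria, were mostly higher. The number was 4 of 6 at 2 weeks (11.2% of all genes), with a median of 0.50. It was again 4 of 6 at 16 weeks (14.1% of all genes), with 1 lower (12.5% of all genes) and a median of 0.44. Mcu, the pore, averaged 82.7 ± 11.8 CPM in DUX4 muscle and 49.8 ± 3.59 CPM in WT muscle at 2 weeks (log2 0.73 ± 0.10, adjusted p = 8.82e-05). At 16 weeks Mcu averaged 72.9 ± 7.99 CPM in DUX4 muscle and 48.4 ± 1.75 CPM in WT muscle (log2 0.59 ± 0.11, adjusted p = 0.00121). Its regulator Micu2 was also higher at 2 weeks (log2 0.36 ± 0.08, adjusted p = 0.00721) and at 16 weeks (log2 0.30 ± 0.09, adjusted p = 0.0251), and Micu3 was lower at 16 weeks (log2 -0.73 ± 0.26, adjusted p = 0.0465). The number higher at 2 weeks was 1 without DUX4 replicate 5 and 2 without DUX4 replicate 1 or 2 or WT replicate 4 or 5. At 16 weeks it was 1 without DUX4 replicate 1 or WT replicate 2 or 4 and 2 without WT replicate 3, and the lower call was lost without DUX4 replicate 1, 3 or 4 or WT replicate 2 or 3.

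Among 12 other channels and pumps, none was called at 2 weeks by edgeR or DESeq2. At an unadjusted p under 0.05 there was 1 lower, and by limma voom 2 were lower. At 16 weeks 1 was higher, Atp2b4, a calcium pump of the cell membrane (log2 0.97 ± 0.29, adjusted p = 0.0207), and 1 was lower, Slc8a1, a sodium-calcium exchanger, with 1.76 ± 0.31 CPM in DUX4 muscle and 7.02 ± 3.05 CPM in WT muscle (log2 -2.003 ± 0.66, adjusted p = 0.0326). Since 14.1% of all genes were higher and 12.5% lower at 16 weeks, 1 of 12 in each direction is not above those shares. The number higher was 0 without DUX4 replicate 3 or WT replicate 1, 2 or 3. The number lower was 0 when any 1 DUX4 library or WT replicate 2 was left out, and 2 without WT replicate 1.

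Fibre-type genes moved beside the 10 genes. Of 8 fast-fibre genes 5 were lower at each time and none higher (median -0.65 at both times). Over all genes 11.2% were higher and 6.47% lower at 2 weeks, and 14.1% and 12.5% at 16 weeks. Actn3, a structural protein of fast fibres, averaged 2019 ± 1151 CPM in DUX4 muscle and 5465 ± 545 CPM in WT muscle at 2 weeks (log2 -1.44 ± 0.30, adjusted p = 0.00312). Myh4, the myosin of the fastest fibres, averaged 15853 ± 6572 CPM in DUX4 muscle and 51679 ± 6263 CPM in WT muscle at 16 weeks (log2 -1.70 ± 0.30, adjusted p = 0.000760). Of 8 slow-fibre genes none was called at either time by edgeR. At 2 weeks 1 was higher at an unadjusted p under 0.05, by DESeq2 and by limma voom, and at 16 weeks there was 0 by each. Of 10 genes of developing or regenerating fibres 6 were higher at 2 weeks and 7 at 16 weeks (medians 2.06 and 2.38), among them Ncam1 at both times (log2 1.40 ± 0.26, adjusted p = 0.00139, and log2 1.38 ± 0.29, adjusted p = 0.00256). Myh8, the myosin of newborn fibres, averaged 292 ± 158 CPM in DUX4 muscle and 51.5 ± 40.7 CPM in WT muscle at 2 weeks (log2 2.50 ± 0.54, adjusted p = 0.00450). Of the 10 pan-fibre genes 6 were lower at each time (medians -0.59 and -0.71), such as Ckm (log2 -0.71 ± 0.17, adjusted p = 0.00706, and log2 -0.76 ± 0.19, adjusted p = 0.00664).

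These counts also moved when single libraries were left out. At 2 weeks the number of fast-fibre genes lower was 2 without DUX4 replicate 2 and 3 without DUX4 replicate 3 or WT replicate 3. The number of developmental genes higher was 2 without WT replicate 4 or 5 and 3 without DUX4 replicate 1, 2 or 3 or WT replicate 2. The number of pan-fibre genes lower was 1 without DUX4 replicate 1 or 2, 2 without DUX4 replicate 3 or WT replicate 2, and 3 without DUX4 replicate 5 or WT replicate 4 or 5. At 16 weeks 3 developmental genes were higher without DUX4 replicate 1 or WT replicate 2 or 3. For the cell types that follow, the share of all genes called higher was 11.2% at 2 weeks and 14.1% at 16 weeks. The part of the fibre lists, of satellite cell genes (1 of 6 higher at 2 weeks and 3 of 6 at 16 weeks) and of macrophage genes (2 of 8 higher at each time) in the rise of Sln was not tested. Nor was that of FAP genes, of which 3 of 8 were higher at 16 weeks (1 without DUX4 replicate 4), with sums of 659.6 to 1266 CPM in DUX4 muscle and 138 to 498 CPM in WT muscle, or of fat cell genes, of which 1 of 5 was higher at 16 weeks. Macrophage genes higher at 2 weeks numbered 1 without DUX4 replicate 1, 2, 3 or 5 or WT replicate 3, 4 or 5. At 16 weeks they numbered 7 without WT replicate 1, 0 without DUX4 replicate 4 and 1 without WT replicate 2 or 3.

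**Figure D4:**
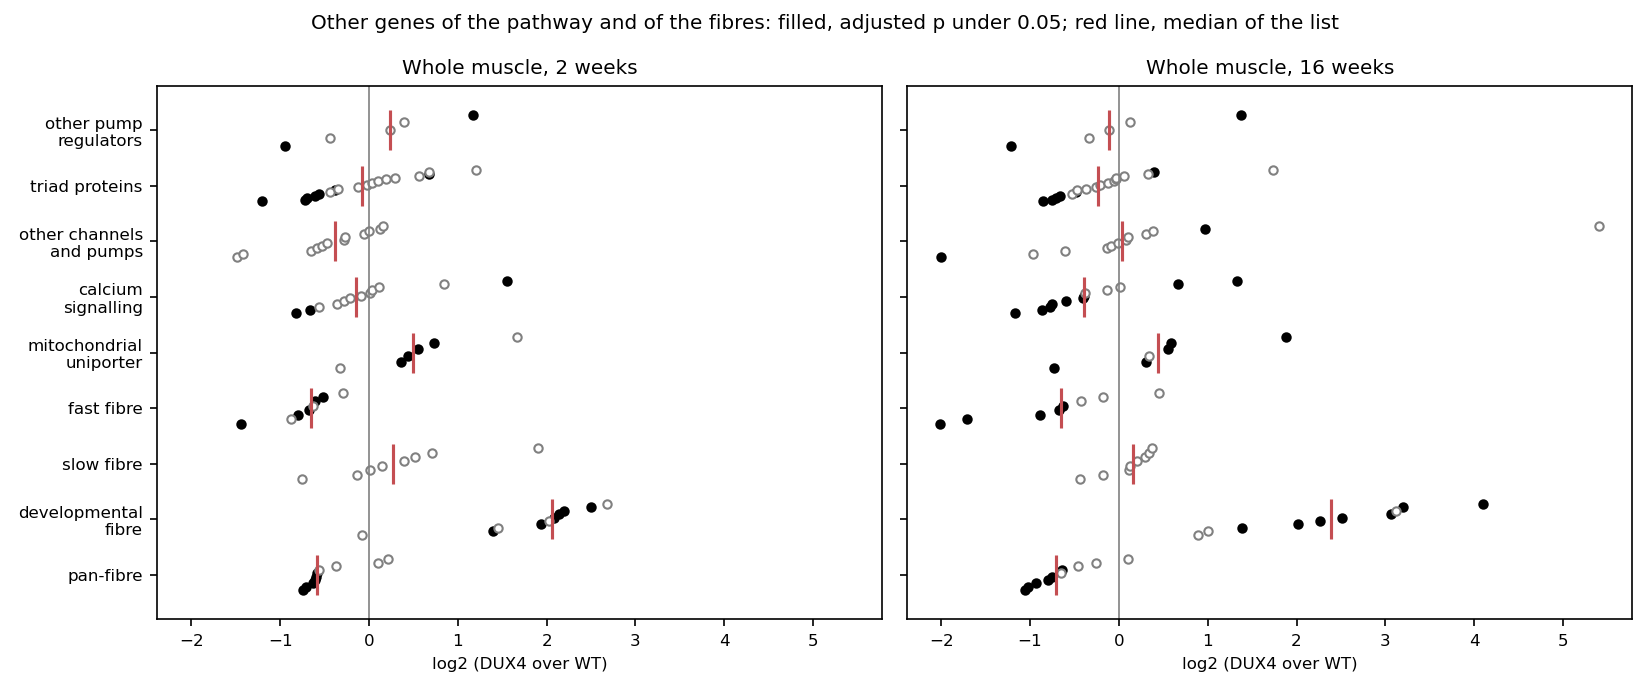
Every tested gene of 9 lists is plotted by its log2 fold change (DUX4 over WT) at 2 weeks and at 16 weeks, filled where the adjusted p was under 0.05, with a red line at the median of the list. Fast-fibre and pan-fibre medians lie below 0 (-0.65 and -0.59 at 2 weeks), and the developmental list lies above it (2.06 at 2 weeks and 2.38 at 16 weeks).

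In CD31+ endothelial cells Sln was the 1 gene of the 10 that was called (5.07% of 17008 genes called, 3.72% higher and 1.35% lower). Sln had 14.9, 30.04, 15.7 and 20.8 CPM in the 4 DUX4 libraries, against 2.49, 0.504 and 1.71 CPM in the 3 WT libraries. In rounded counts that was 271, 570, 327 and 478 in DUX4 libraries, against 48, 9 and 29 in WT libraries, with no overlap (log2 3.69 ± 0.55 (SE), adjusted p = 0.000641). Pvalb had 30.4, 32.04, 14.6 and 15.2 CPM in DUX4 libraries and 7.63, 2.85 and 12.5 CPM in WT libraries, which did not overlap but did not pass (log2 1.59 ± 0.59 (SE), adjusted p = 0.147). Atp2a1 had 286, 189, 60.5 and 109.99 CPM in DUX4 libraries and 68.3, 13.8 and 48.5 CPM in WT libraries, with DUX4 replicate 3 inside the WT range (log2 1.89 ± 0.84 (SE), adjusted p = 0.274). Casq1 had 18.1, 17.1, 3.65 and 11.1 CPM in DUX4 libraries and 7.004, 2.69 and 5.50 CPM in WT libraries, with the same replicate inside the WT range (log2 1.30 ± 0.66 (SE), adjusted p = 0.331). The median log2 change of the 10 was 0.80, against -0.00 over all genes tested, and 3 of the 10 did not overlap, as in 18.1% of genes.

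RNA of muscle fibres was present in the endothelial sort, and its pan-fibre and fast-fibre sums were higher in DUX4 libraries. The slow-fibre sum was not, with 6.43 to 17.6 CPM in DUX4 libraries and 12.5 to 15.0 CPM in WT libraries. The 10 pan-fibre genes summed to 358 to 731 CPM in DUX4 libraries and 197 to 311 CPM in WT libraries, and 8 fast-fibre genes to 179 to 438 CPM in DUX4 libraries and 65.0 to 143 CPM in WT libraries. No pan-fibre gene was called by edgeR, while 4 were higher at an unadjusted p under 0.05, 3 by DESeq2 and 1 by limma voom. Of the fast-fibre genes 2 were higher, Tnnc2 with 62.1 ± 24.8 CPM in DUX4 libraries and 21.3 ± 5.74 CPM in WT libraries (adjusted p = 0.0224) and Actn3 with 36.4 ± 17.9 CPM in DUX4 libraries and 12.4 ± 0.61 CPM in WT libraries (adjusted p = 0.0284), and neither was without DUX4 replicate 1 or 2 or WT replicate 2 or 3. Of 10 genes of developing or regenerating fibres 7 were tested and 2 were higher (3.72% of all genes), Actc1 and Myog. At an unadjusted p under 0.05 there were 4 higher and 1 lower. Actc1 and Myog averaged 9.82 ± 3.66 and 11.1 ± 6.41 CPM in DUX4 libraries and 0.0746 ± 0.129 and 0.0373 ± 0.0646 CPM in WT libraries (adjusted p = 0.00115 and 0.00387). Per 1000 CPM of pan-fibre RNA, Sln stood at 20.4 to 47.9 CPM in the DUX4 endothelial libraries and 2.55 to 8.06 CPM in the WT ones, above the ratio in whole muscle of either time (at most 18.8 CPM in DUX4 muscle and 1.10 CPM in WT muscle). The same ratio of Atp2a1 was 169 to 391 CPM in DUX4 endothelial libraries, against 235 to 380.0 CPM in DUX4 muscles at 16 weeks. Sorted libraries came from 75000 cells and whole-muscle libraries from 500 ng of RNA, and they were fitted apart. These ratios are therefore not strictly comparable between them, and the source of Sln RNA in this sort was not tested.

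Pln and Casq2 had lower means in DUX4 endothelial cells. Pln had 2.42, 2.85, 3.51 and 2.83 CPM in DUX4 libraries, against 7.31, 7.95 and 8.92 CPM in WT libraries, with no overlap (log2 -1.47 ± 0.51 (SE), adjusted p = 0.119). It was called lower by DESeq2 (log2 -1.48, adjusted p = 0.0263), by limma voom (log2 -1.43, adjusted p = 0.0176) and with only the 2 groups compared (log2 -1.47, adjusted p = 0.0317). Casq2 had 12.96, 13.9, 15.1 and 25.6 CPM in DUX4 libraries and 25.01, 47.96 and 32.3 CPM in WT libraries, overlapping through DUX4 replicate 4 (log2 -1.05 ± 0.58 (SE), adjusted p = 0.378). Both genes are also expressed in smooth muscle. A list of 8 genes of pericytes and smooth muscle summed to 639 to 911 CPM in DUX4 libraries and 1228 to 1558 CPM in WT libraries, none of them at 0, with 3 lower and 1 higher, and its part in these values was not tested. FAP genes (6 of 8 higher, against 3.72% of all genes) and macrophage genes (619 to 1241 CPM in DUX4 libraries and 81.1 to 759 CPM in WT libraries) were also present in this sort. Satellite cell genes were present too, with sums of 380 to 667 CPM in DUX4 libraries and 296 to 456 CPM in WT libraries. These overlapped, and 0 of the 6 genes were called. Of the rest of the pathway, S100a1 was lower (log2 -0.85 ± 0.21, adjusted p = 0.0244) and Cacna2d1 was higher (log2 1.12 ± 0.26, adjusted p = 0.0178). Of 12 calcium signalling genes 1 was lower, and 0 without DUX4 replicate 2 or 3 or WT replicate 3. S100a1 lost its call without DUX4 replicate 1 or 3 or WT replicate 1 or 3.

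Atp2a2 was the most abundant of the 10 in the sorted cells, with 383, 383, 351 and 428 CPM in DUX4 endothelial libraries and 289, 358 and 290.1 CPM in WT ones, overlapping through WT replicate 2 (log2 0.31 ± 0.14 (SE), adjusted p = 0.261). The release genes were at a few CPM or less. Ryr1 had 1.65, 5.80, 4.23 and 2.66 CPM in DUX4 endothelial libraries and 4.15, 1.18 and 6.15 CPM in WT ones (log2 -0.09 ± 0.71 (SE), adjusted p = 0.966). Jsrp1 had 1.98, 2.42, 1.92 and 1.52 CPM in DUX4 endothelial libraries and 2.18, 2.35 and 1.06 CPM in WT ones (log2 0.07 ± 0.86 (SE), adjusted p = 0.977). Cacna1s had 0.0549, 2.95, 3.41 and 3.14 CPM in DUX4 endothelial libraries and 2.02, 0.336 and 0.0591 CPM in WT ones (log2 1.55 ± 1.40 (SE), adjusted p = 0.635). All 3 overlapped between the genotypes, and Cacna1s in DUX4 replicate 1 was under the limit of 0.191 CPM that 3 counts give there.

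**Figure D5:**
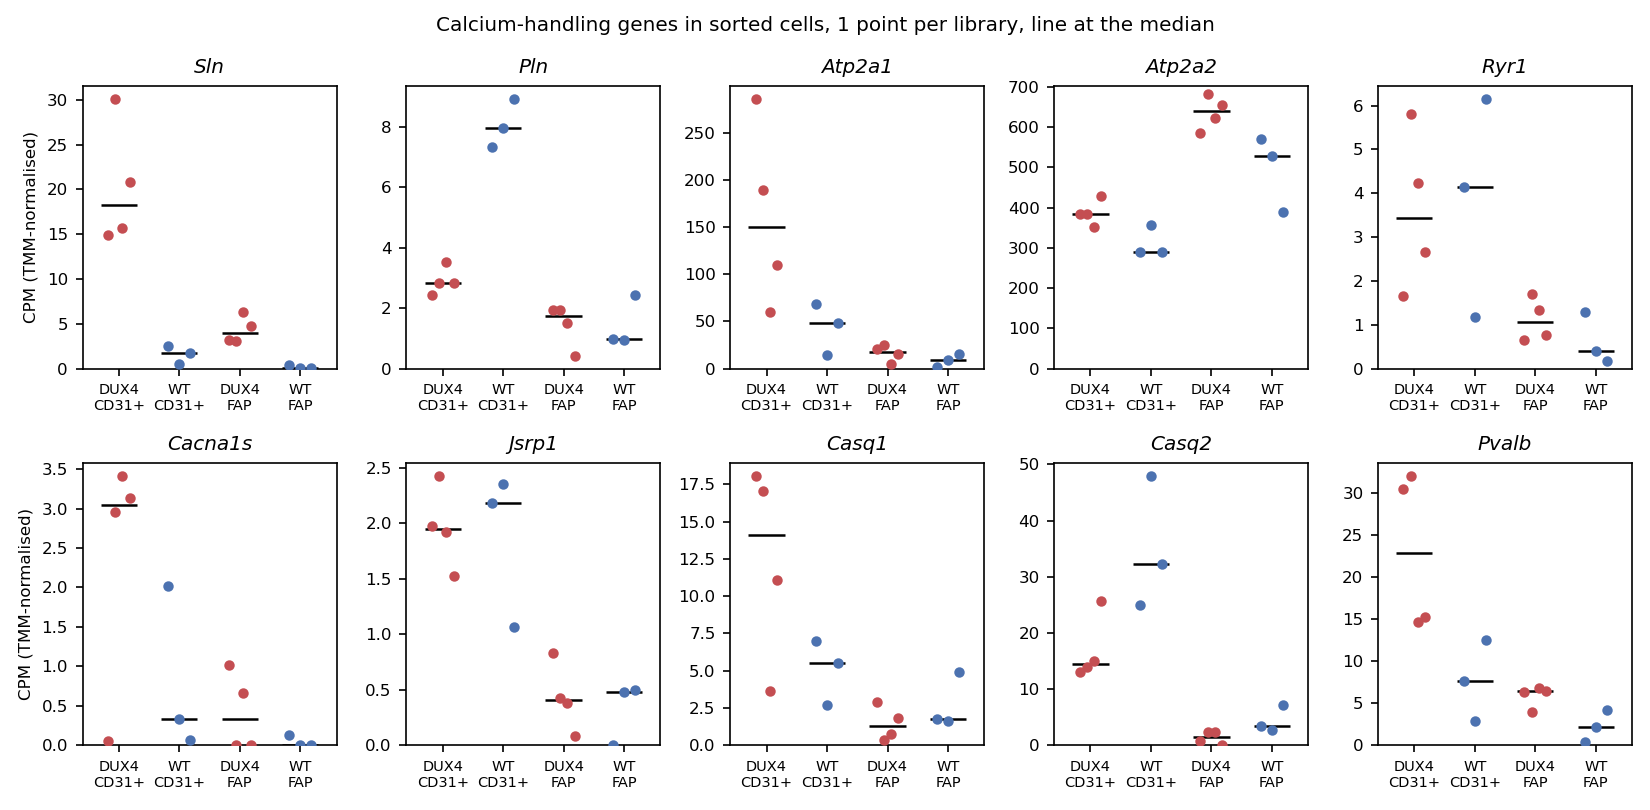
Each panel plots 1 of the 10 genes in the sorted cells as TMM-normalised CPM on a linear axis, with 1 point per library and a line at the group's median, for DUX4 and WT CD31+ endothelial cells and DUX4 and WT FAPs. Sln runs from 14.9 to 30.0 CPM in DUX4 CD31+ libraries and from 3.10 to 6.36 CPM in DUX4 FAPs, above the WT libraries of the same cells, and Atp2a2 lies at 289 CPM or more in every library.

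In FAPs Sln was again the 1 gene called (3% of genes called, 1.23% higher and 1.77% lower). Sln had 3.23, 3.10, 6.36 and 4.80 CPM in the 4 DUX4 libraries, against 0.371, 0.0677 and 0.110 CPM in the 3 WT libraries. The counts were 35, 29, 67 and 56 in DUX4 libraries, against 6, 1 and 2 in WT libraries, 187 against 9 in all, so the fold rests on few WT counts (log2 4.52 ± 0.65 (SE), adjusted p = 0.00105). Without WT replicate 1 the log2 change was 5.48. Atp2a2, the abundant pump of these cells too, had 585, 682, 622 and 655 CPM in DUX4 libraries and 571, 529 and 388 CPM in WT libraries, which did not overlap and did not pass (log2 0.36 ± 0.14 (SE), adjusted p = 0.215). Casq2 had 0.738, 2.25, 2.37 and 0 CPM in DUX4 libraries and 3.46, 2.64 and 7.15 CPM in WT libraries, also apart and not called (log2 -1.75 ± 0.66 (SE), adjusted p = 0.205). Pvalb had 6.36, 3.96, 6.74 and 6.43 CPM in DUX4 libraries and 0.371, 2.10 and 4.12 CPM in WT libraries, with overlap at DUX4 replicate 2 (log2 1.41 ± 0.61 (SE), adjusted p = 0.282). The other 6 genes ranged from 0 to 24.5 CPM in DUX4 FAPs and from 0 to 15.7 CPM in WT FAPs and all overlapped. The groups of 3 of the 10 did not overlap, as in 14.7% of genes, and the median log2 change of the 10 was 0.61, against -0.07 over all genes tested.

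The pan-fibre sum did not separate the genotypes in FAPs. It was 43.7 to 78.6 CPM in DUX4 FAPs and 45.5 to 86.3 CPM in WT FAPs, with at most 2 of its 10 genes at 0 in a DUX4 library, and 1 of the 10, Des, was lower in DUX4 FAPs, with 10.7 ± 2.32 CPM against 33.5 ± 6.37 CPM in WT FAPs (adjusted p = 0.000120). Per 1000 CPM of pan-fibre RNA, Sln stood at 44.6 to 146 CPM in DUX4 FAPs and 1.27 to 8.15 CPM in WT FAPs. Among the other lists, Orai1, a calcium entry channel, was lower in DUX4 FAPs (log2 -1.02 ± 0.24, adjusted p = 0.0319), as was Rcan2 (log2 -1.43 ± 0.37, adjusted p = 0.0492). The number of other channels and pumps lower was 0 when DUX4 replicate 1 or 4 or any 1 WT library was left out, and 2 without DUX4 replicate 2. The number of calcium signalling genes lower was 0 when any 1 library other than DUX4 replicate 1 was left out. The fast-fibre sum was 38.5 to 53.3 CPM in DUX4 FAPs and 18.9 to 47.7 CPM in WT FAPs, with overlap, and the macrophage sum was 61.5 to 299 CPM in DUX4 FAPs and 10.2 to 148 CPM in WT FAPs. Other sums did separate the genotypes. The FAP sum itself was higher in DUX4 FAPs (54805 to 58344 CPM, against 41997 to 50651 CPM in WT FAPs). So was the satellite cell sum (159 to 253 CPM in DUX4 FAPs and 119 to 155 CPM in WT FAPs), with 0 of its 6 genes called. The pericyte and smooth muscle sum was higher too (505 to 672 CPM in DUX4 FAPs and 439 to 448 CPM in WT FAPs). Lower in DUX4 FAPs was the endothelial sum (96.2 to 172 CPM in DUX4 FAPs and 238 to 285 CPM in WT FAPs). The Schwann cell sum (18.6 to 37.0 CPM in DUX4 FAPs and 46.7 to 78.2 CPM in WT FAPs) was also lower. Fat cell genes summed to 44.8 to 64.1 CPM in DUX4 FAPs and 85.8 to 206 CPM in WT FAPs. Although the pericyte and smooth muscle sum was higher, 1 of its 8 genes was called higher and 2 lower, with a median log2 change of -0.91. Without WT replicate 3 these counts were 0 higher and 1 lower. The part of any of these cell types in the Sln value was not tested.

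The DUX4 effect in FAPs minus that in endothelial cells was called for none of the 10 genes, against 2.25% of genes (0.553% with a positive and 1.70% with a negative difference). The count was 0 by edgeR, by DESeq2 and by limma voom, and 1 gene, Casq1, had an unadjusted p under 0.05 (-2.23 ± 0.94, SE, adjusted p = 0.292). For Sln the difference was 0.83 ± 0.77 (adjusted p = 0.727) and for Pln it was 1.46 ± 0.74 (adjusted p = 0.408). In the sorted cells the order of Sln levels was DUX4 endothelial cells, DUX4 FAPs, WT endothelial cells and WT FAPs, with 20.4 ± 6.96, 4.37 ± 1.53, 1.57 ± 1.001 and 0.183 ± 0.164 CPM (SD, n = 4, 4, 3 and 3), and no neighbours in that order overlapped.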

How the data were processed

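RNA was sequenced from 18 whole-muscle and 14 sorted-cell libraries of mice. The authors deposited estimated counts per gene, made with Salmon 0.6.0 against mm10 after base calling with CASAVA 1.8, per the submitters' processing notes. Neither the annotation release nor any use of strand in counting is given in the sources used here.

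The expected counts were rounded to whole numbers and fitted with edgeR 4.0.16 (R 4.3.3), separately for whole muscle and sorted cells. TMM factors, filterByExpr with a minimum count of 10 and the robust quasi-likelihood test were used, with Benjamini-Hochberg adjustment over all genes tested and calls at an adjusted p under 0.05. The standard error of a log2 change is its size divided by the square root of F. GENCODE vM21 gave symbols for 42459 of the 43035 gene IDs. The procedure was checked on simulated counts. Within-library ratios used 1 CPM added to each gene and two-sided exact permutation tests, adjusted over 12 tests, or over 20 tests for genes against the pan-fibre sum.

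The 10 genes and the 17 gene lists (151 genes, the 10 included) were chosen with earlier results of these data known. From each other list the text names up to 3 called genes of each direction with the smallest p. For Sln, Pln and Pvalb the rule takes the 5 genes most correlated over 18 libraries. A few genes that these rules select are not reported here. Alternatives were DESeq2 1.42.0, limma 3.58.1 voom with quality weights, RLE size factors, other filters and pseudocounts, only the groups compared, a covariate of Y-linked genes, the Hoxd8 sets of 2 weeks, other pan-fibre denominators and leaving out each library. Intervals of depth cover counting error only.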

Additional observations from a re-analysis of the deposited data

Results flagged for a closer look

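In 8 of 60 groups of 4 or 5 libraries, 1 library stood apart from the rest of its group in 1 of the 10 genes, by the gap to its nearest neighbour set against the whole range. Chance marks about 5 percent of groups, so 3 would be found among 60. At 2 weeks DUX4 replicate 4 was the one apart for Pln (6.73 CPM, the others 3.46 to 4.19 CPM), for Atp2a1 (24979.7 CPM, the others 11431 to 15279 CPM) and for Ryr1 (3194 CPM, the others 1608 to 2059 CPM). WT replicate 1 of 2 weeks was the one apart for Sln (39.4 CPM, the others 1.28 to 2.75 CPM) and for Casq1 (3812 CPM, the others 2968 to 3150.01 CPM). In DUX4 endothelial cells, replicate 4 was apart for Casq2 (25.6 CPM, the others 13.0 to 15.1 CPM) and replicate 1 for Cacna1s (0.0549 CPM, the others 2.95 to 3.41 CPM). In DUX4 FAPs, replicate 2 was apart for Pvalb (3.96 CPM, the others 6.36 to 6.74 CPM).

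The values of Pvalb separated the genotypes in opposite directions in 2-week muscle and in endothelial cells. All 5 DUX4 muscles of 2 weeks were below all 5 WT muscles (log2 -1.05), and all 4 DUX4 endothelial libraries were above all 3 WT endothelial libraries, a change that was not called (log2 1.59, adjusted p = 0.147). The difference between these changes was not tested, since muscle and sorted cells were fitted apart.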

How the results depend on the processing

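No paired analysis was possible because the labels number no replicates across the groups and the numbers used here follow the order of deposit. Of 1745 values set against an alternative, 1605 kept their side of the threshold, 44 of these turning direction with no call in either, 122 lost a call, 18 gained one and 0 turned direction with a call. Of the 10 genes, 7 were called at 2 weeks, 4 to 8 when single libraries were left out, and 0 with the libraries of low Hoxd8 alone. At 16 weeks the count of 4 was 4 to 5 in the leave-outs and 4 to 6 otherwise. In endothelial cells the count of 1 became 2 with DESeq2, with limma voom and with only the 2 groups compared, Pln being the gene added. In FAPs it was 1 in all alternatives, and both tests of a difference between changes gave 0 in all. The 7 ratio tests that passed became 0 to 8 when single libraries were left out. The 0 tests against the pan-fibre sum became 0 to 5, the 5 without DUX4 replicate 4 of 2 weeks. Casq2 lost its 2-week call in 13 of 20 alternatives, Pvalb in 9 and Casq1 in 6. The cause was not tested, beyond the smaller number of libraries in a leave-out. Cacna1s was at or under 3 counts in some sorted libraries, and a difference in it was not detectable at this depth. WT replicate 4 of 16 weeks had 1.18 CPM of Xist, against 156 to 302 CPM in the other 7 libraries of that time, and DUX4 replicate 3 had 70.4 CPM of Y-linked genes, against 2.33 to 11.1 CPM in the other 7. With a covariate of Y-linked genes 6 genes were called at 2 weeks and 4 at 16 weeks. That covariate was highest in DUX4 replicate 3 of 16 weeks. WT replicate 4 (11.1 CPM) stood near DUX4 replicate 1 (10.6 CPM) of that time, so this setting cannot show what a difference in sex would do.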
